A study of Mus musculus with 2 samples.

Results

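Photoreceptors build their light-sensing outer segment on a modified cilium, and this account covers 44 mouse genes that make or serve that cilium. They were a fixed list of BBSome, intraflagellar transport, transition zone and lipidated-protein trafficking genes, and their probes were found by matching the RefSeq accession of each array probe to a gene symbol. All 44 were found, out of 20659 genes with a probe, and 64 probes represented them. The samples were retinas of mice at postnatal day 14, dissected with forceps, with 1 Mef2d KO sample and 1 wild-type (WT) sample, each hybridised to its own one-colour Agilent array. Mef2d encodes a MEF2 transcription factor, and the study asked how expression in the retina differs in its absence. The knockout allele, the strain, the number and sex of the animals and any pooling are not given in the sources used here.

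A photoreceptor's connecting cilium is a long transition zone through which every outer segment protein must pass. Intraflagellar transport trains, moved outward by kinesins, carry cargo along the axoneme, and the BBSome is an adaptor that removes membrane proteins from the cilium. Proteins with a lipid tail, such as transducin and the rod phosphodiesterase, enter bound to soluble carriers that the small GTPase ARL3 unloads inside. Mutations in many of these genes cause retinal degeneration in humans, alone, as in Leber congenital amaurosis, or in syndromes such as Bardet-Biedl and Joubert.

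Each group was read on 1 array, so differences could not be set against a spread between animals and no test was made. A level is the log2 processed signal of a gene's brightest probe minus the 75th percentile of its array, and a difference is the Mef2d KO level minus the WT level. A level depends on its probe, so levels are not compared between genes. The scanner software's error model gave each member difference an SD of 0.204 to 0.221, which covers spots and not animals. Control RNA spiked in equal amount into both samples showed how far the arrays agreed. The 6 spikes with levels above -2 differed by -0.031 to 0.022 (medians of 35 spots each), and the spike at -2.94 on the Mef2d KO array and -2.84 on the WT array differed by -0.11. Of the 44 members, 42 had levels above -3 on both arrays.

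The array labelled Mef2d KO did not show less Mef2d signal. One probe had a level of 0.34 on the Mef2d KO array and -0.091 on the WT array, and the other -1.54 on the Mef2d KO array and -1.68 on the WT array. Where they lie relative to the deleted part is not given, and their differences were 0.43 and 0.14. Xist, the RNA of the inactive X chromosome, was at least 51.7-fold higher on the Mef2d KO array by its brighter probe, which was not well above background in WT. Since female cells make Xist and the labels give no sex, genotype and sex cannot be told apart in any difference below. Of the members, Rpgr is X-linked. As a check of the tissue, all 19 rod and cone markers were well above background on both arrays. Their summed signal, on the log2 scale relative to the 75th percentile, was 10.49 on the Mef2d KO array and 10.62 on the WT array. In these bulk samples, fewer cells of a type and less RNA per cell cannot be told apart.

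Ciliary transport genes differed little between the arrays. All 64 member probes were well above background on both arrays, and none of the 44 genes was 2-fold or even 1.5-fold apart on this scale. The comparison set was the 16185 genes measured well above background in both samples. Of these, 1.74% were lower and 0.618% higher by 2-fold or more, and 5.44% were lower and 2.08% higher by 1.5-fold or more. This set includes genes at or below -3, while 42 members lay above -3 on both arrays. The median SD of the difference between replicate spots was 0.38 at or below -3 and 0.061 above it. Shares for genes above -3 alone were not computed. Differences of the members ran from -0.45 for Arl3 to 0.41 for Bbs5. Their median was 0.11, against -0.0060 for all genes and 0.014 for the 13118 genes with a mean level above -3. The difference was above 0 for 31 of the 44 members and for 48.8% of all genes. Scaling the arrays by their medians adds 0.18 to every difference, so directions are read here relative to all genes. The spikes with levels above -2, at -0.031 to 0.022 on the scale used here, would be moved by that 0.18 too.

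**Figure D1:**
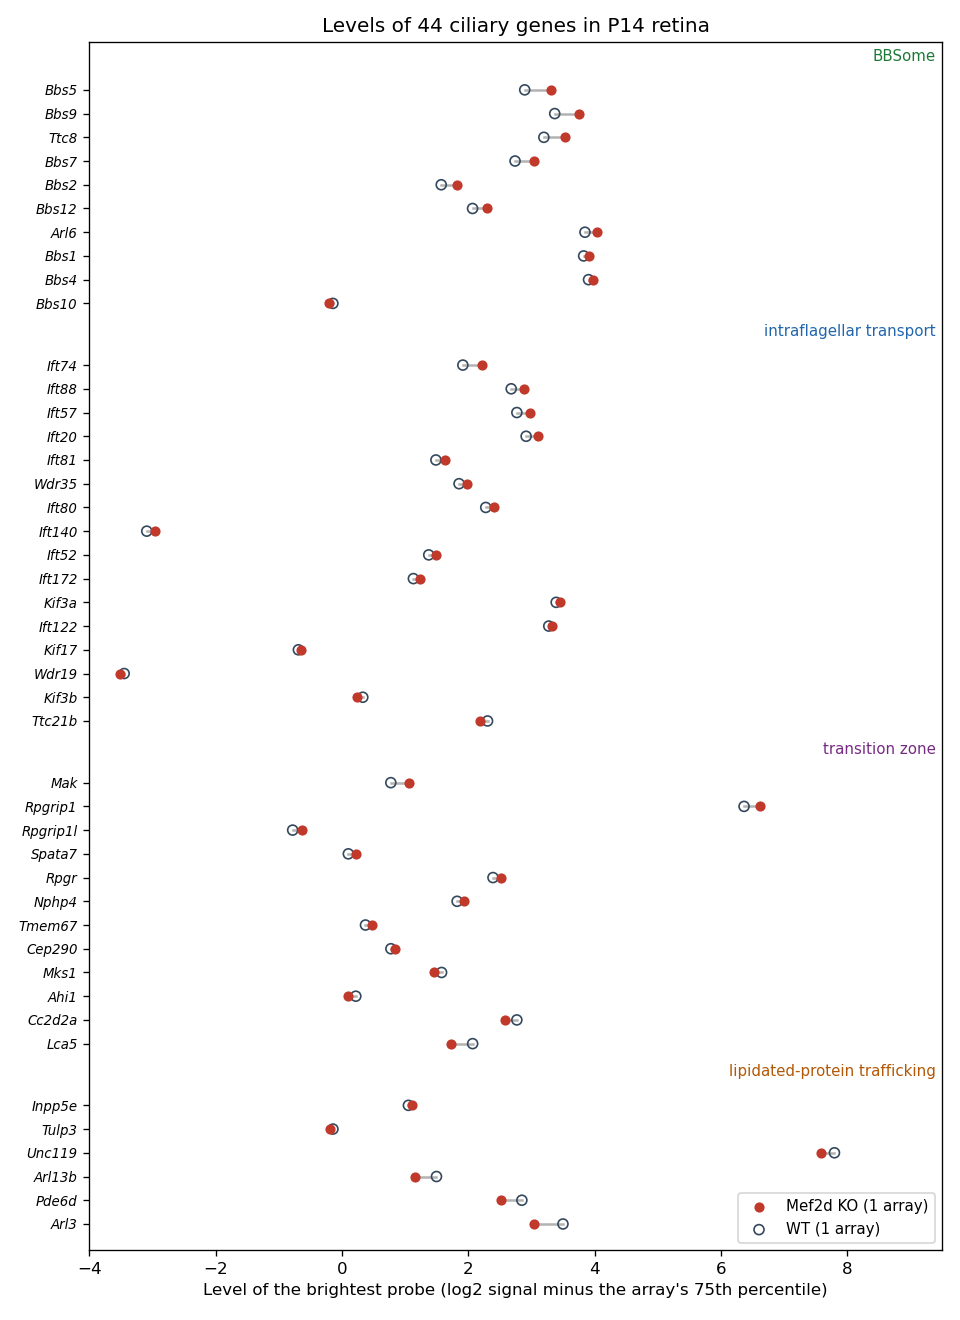
Level of each of the 44 genes (log2 signal minus the array's 75th percentile, brightest probe) on the Mef2d KO array (filled red) and the WT array (open grey), by group and sorted by difference. The paired points lie close together for every gene, with Mef2d KO to the right for 9 of 10 BBSome genes and to the left for 5 of 6 lipidated-protein trafficking genes.

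The 4 groups stood at different places within this narrow range. The median difference was 0.24 for the 10 BBSome genes, 0.12 for the 16 intraflagellar transport genes, 0.11 for the 12 transition zone genes and -0.27 for the 6 lipidated-protein trafficking genes. A finer rule, added after the values were seen, counted members beyond their own error-model SD. By it 9 members were higher and 5 lower, against 13.0% and 18.8% of all genes. With median scaling 31 members were higher and 1 lower, against 41.8% and 9.03% of all genes, and 1 member, Bbs5, was at least 1.5-fold higher, as were 4.35% of all genes. Of the 9 higher members 6 were BBSome genes, and of the 5 lower members 4 belonged to lipidated-protein trafficking.

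**Figure D2:**
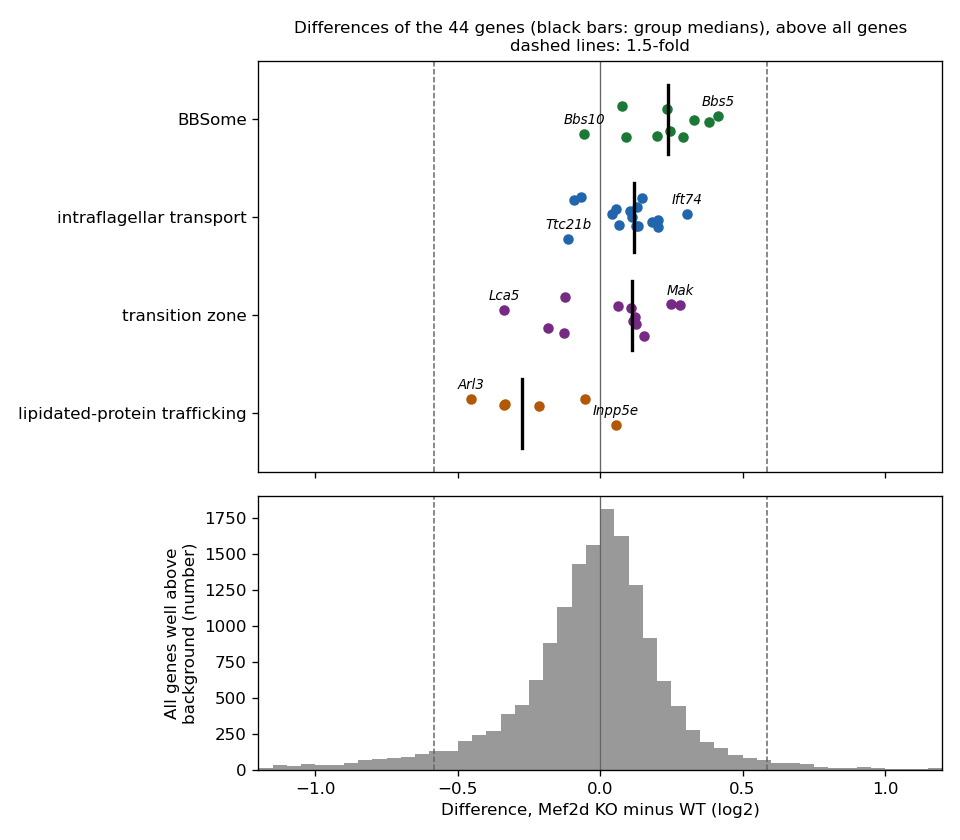
Difference (log2, Mef2d KO minus WT) of each of the 44 genes by group, with black bars at the group medians, above a histogram of the full comparison set within the range of the axis. All points lie inside the dashed 1.5-fold lines; the BBSome median is 0.24 and the lipidated-protein trafficking median -0.27.

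The BBSome is an octamer. The members included 7 of its subunits, its assembly factors Bbs10 and Bbs12, and Arl6, the GTPase that recruits it to membranes. The remaining subunit, Bbip1, was on a wider list and stood at -1.33 in Mef2d KO and -1.51 in WT (0.18), within its error-model SD. Each of the 7 subunits had a higher level on the Mef2d KO array, with a median difference of 0.29. Bbs5, whose protein binds phosphoinositides, had a level of 3.31 on the Mef2d KO array and 2.89 on the WT array. This difference of 0.41, or 1.33-fold, was the highest of the 44, and 4.25% of all genes had one as high. Bbs9, a scaffold of the complex, stood at 3.75 in Mef2d KO and 3.37 in WT, a difference of 0.38. Ttc8, which encodes the subunit BBS8, stood at 3.52 in Mef2d KO and 3.20 in WT (0.33). Bbs7 and Bbs2 encode propeller subunits of the core. Bbs7 had levels of 3.03 in Mef2d KO and 2.74 in WT (0.29), and Bbs2 of 1.82 in Mef2d KO and 1.57 in WT (0.24). These 5 subunits lay beyond their error-model SD, while Bbs1, which contacts Arl6, and Bbs4 differed by 0.090 and 0.075, within it.

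The genes that assemble and recruit the complex were less uniform. Bbs12, a chaperonin-like protein, stood at 2.30 in Mef2d KO and 2.07 in WT (0.24). Bbs10, the other chaperonin-like protein, stood at -0.20 in Mef2d KO and -0.14 in WT (-0.057), and its other probe gave 0.057, so no direction was set for it. Arl6 had levels of 4.05 in Mef2d KO and 3.85 in WT, a difference of 0.20, and 0.11 by its other probe. Among 13 further BBS and adaptor genes none was 1.5-fold apart and 9 had a difference above 0, with a median of 0.12. Mkks, a further chaperonin-like BBS gene, differed by 0.46 (2.77 in Mef2d KO and 2.31 in WT), and Wdpcp, a planar polarity effector of ciliogenesis, by 0.45 (0.77 in Mef2d KO and 0.32 in WT). At the other end Tulp1, a tubby-like protein of photoreceptors, differed by -0.19 and Rab11a, a vesicle GTPase, by -0.088. On the median scale Rab11a had a positive difference, of 0.090.

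Promoter letters were read for the members from RefSeq (GRCm38.p6), in windows of 250 bases before to 50 after each annotated start, which 40 of the 44 members had. Regulatory factor X (RFX) proteins are known activators of ciliary genes and bind an X-box, of which one arm reads GTTGCC. That arm, on either strand, was in the windows of 16 of the 40 members (40.0%) and of 14.1% of 27025 genes with a window. A longer X-box motif with both arms, which may contain that arm, was searched as a single pattern of 14 letters. The spacing and the letters between its arms were fixed. That pattern was in none of the 40 and in 0.685% of all genes. Both arms at another spacing, or with other letters between them, were not searched for. In the Ift57 window printed below, letters that fit the other arm follow the arm at a closer spacing. In the Bbs7 window, also printed below, they follow at the spacing of the pattern, and a letter between the arms differs from it. A MEF2 element was likewise in none of the 40 and in 3.70% of all genes. The photoreceptor factor CRX has the core TAATCC, which was in the windows of Bbs1, Mak, Rpgrip1 and Unc119, 4 of the 40 members (10%), against 8.14% of all genes. A match describes the letters and does not show binding. In the sequences printed here, capitals mark the X-box arm or the CRX core on either strand, and all run 5′ to 3′ on the gene's strand.

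Windows of Bbs5 and Bbs7 are shown as BBSome genes that hold the arm and were higher by both probes, as was Bbs1, the other BBSome holder. The 16 holders had differences of both signs. By the brightest probe Ahi1, Arl13b, Lca5, Mks1 and Pde6d were lower in Mef2d KO and the others higher. In Bbs5 (chr2:69646921-69647220, + strand) the arm begins 42 bases after the start, and in Bbs7 (chr3:36613340-36613639, - strand) 121 bases before it.
Bbs5: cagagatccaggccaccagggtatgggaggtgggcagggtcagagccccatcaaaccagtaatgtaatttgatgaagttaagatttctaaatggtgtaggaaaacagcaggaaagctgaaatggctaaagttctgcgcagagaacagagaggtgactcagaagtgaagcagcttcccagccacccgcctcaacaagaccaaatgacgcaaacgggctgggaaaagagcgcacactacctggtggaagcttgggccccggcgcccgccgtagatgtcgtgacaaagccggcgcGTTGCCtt
Bbs7: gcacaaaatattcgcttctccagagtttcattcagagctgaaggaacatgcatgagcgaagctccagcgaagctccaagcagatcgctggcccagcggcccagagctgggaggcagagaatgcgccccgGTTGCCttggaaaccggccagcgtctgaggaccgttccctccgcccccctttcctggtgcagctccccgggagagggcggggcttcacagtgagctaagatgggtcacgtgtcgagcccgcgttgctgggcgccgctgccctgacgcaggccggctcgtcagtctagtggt

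Intraflagellar transport genes had small differences, mostly above 0. Of the 16, 13 had a positive difference, and 1 lay beyond its error-model SD. The 8 IFT-B genes, whose products form the train that moves toward the ciliary tip, had differences of 0.10 to 0.31 with a median of 0.17. Ift74, a tubulin-binding subunit, led them with a level of 2.22 in Mef2d KO and 1.91 in WT, a difference of 0.31. Its partner Ift81 stood at 1.64 in Mef2d KO and 1.49 in WT (0.15). Ift88, a core subunit whose loss blocks ciliogenesis in mice, stood at 2.88 in Mef2d KO and 2.68 in WT (0.20). Ift57 stood at 2.97 in Mef2d KO and 2.77 in WT (0.20), and Ift20, which also works at the Golgi, at 3.10 in Mef2d KO and 2.92 in WT (0.18). Ift80, Ift52 and Ift172, all further IFT-B subunits, differed by 0.13, 0.11 and 0.10. All 8 levels were thus higher in Mef2d KO, Ift74 by 1.24-fold and the others by less, and 7 of the 8 differences lay within the error-model SD.

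The IFT-A genes, whose products serve return transport and entry of membrane proteins, had a median of 0.057. Ift122 had levels of 3.33 in Mef2d KO and 3.27 in WT (0.057), and Wdr35 of 1.99 in Mef2d KO and 1.85 in WT (0.13). Ttc21b, which encodes IFT139, stood at 2.19 in Mef2d KO and 2.31 in WT, a difference of -0.11, and its dimmer probe gave -0.094. Ift140 and Wdr19 (IFT144) were the dimmest members, near or below -3, where the spikes lay farther apart. Ift140 differed by 0.13, which became 0.046 with normexp background, 0.27 with quantile normalization and 0.30 with cyclic loess. Wdr19 differed by -0.066, which became 0.12 with quantile normalization and 0.17 with cyclic loess.

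Each of the 3 motor genes differed by less than 0.1. Kif3a and Kif3b, which form the kinesin-II motor with an accessory subunit, differed by 0.066 and -0.091, and the other probes gave -0.029 and 0.24. Kif17, another ciliary kinesin, stood at -0.65 in Mef2d KO and -0.69 in WT (0.041), while its dim probe gave -0.40 at a level of -4.71 in Mef2d KO and -4.31 in WT. The 3 motor genes thus had a probe of each sign. None of 18 further intraflagellar transport genes was 1.5-fold apart by its brightest probe. The second brightest probe went the other way for Ift46, an IFT-B subunit (0.18 and -0.91), and for Ttc26, which encodes IFT56 (0.11 and -0.45). Their median was 0.062, with Ift22 at 0.41 and Ift27 at 0.39, both small GTPases of the IFT-B train, at one end. At the other end stood the dynein-2 subunit Wdr60 at -0.30 and the kinesin-II subunit Kif3c at -0.14, which became 0.039 with median scaling.

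The window of Ift57 (chr16:49699044-49699343, + strand) is shown because it holds the arm at 2 places, beginning 87 and 60 bases before the start.
Ift57: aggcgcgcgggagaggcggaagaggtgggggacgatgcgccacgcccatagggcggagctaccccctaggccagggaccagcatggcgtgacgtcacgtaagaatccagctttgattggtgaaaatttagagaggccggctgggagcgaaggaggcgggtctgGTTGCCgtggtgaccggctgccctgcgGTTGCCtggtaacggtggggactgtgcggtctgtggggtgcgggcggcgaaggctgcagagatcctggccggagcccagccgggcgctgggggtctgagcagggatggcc

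Transition zone genes were split. Differences were above 0 for 8 of the 12, and 3 lay beyond their error-model SD, 2 higher and 1 lower. Rpgrip1, the scaffold that anchors RPGR in the connecting cilium, had levels of 6.61 in Mef2d KO and 6.37 in WT, a difference of 0.25, and 0.18 by its other probe. Rpgr itself stood at 2.51 in Mef2d KO and 2.39 in WT (0.12). Its 4 probes, on transcripts of 2 accessions, all gave positive differences, from 0.11 to 0.17. Spata7, which binds RPGRIP1, and Rpgrip1l, a paralog of Rpgrip1, differed by 0.12 and 0.15. All 4 of these genes were thus higher in Mef2d KO, Rpgrip1 by 1.19-fold and the others by less and within their error-model SD. Mak, a kinase that limits the length of photoreceptor cilia in mice, stood at 1.06 in Mef2d KO and 0.77 in WT (0.28).

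Lower levels were found for Lca5 and for 3 of 6 genes listed with the Joubert and Meckel modules, of which the other 3 were higher. Lca5 encodes lebercilin, a ciliary protein that binds the transport machinery. It had levels of 1.73 in Mef2d KO and 2.07 in WT, a difference of -0.34, or -0.16 with median scaling, within its error-model SD. Its other usable probe, on another transcript accession, gave -0.37, and 1 more was left out as an outlier spot. Cc2d2a, a transition zone membrane component, stood at 2.59 in Mef2d KO and 2.77 in WT (-0.18), and its other probe gave -0.25. With median scaling Cc2d2a differed by -0.0042. Ahi1, which encodes jouberin, was read at 9 spots of 1 probe, and all 9 were lower in Mef2d KO, with a mean difference of -0.13 ± 0.055 (SD between spots of the same 2 samples). Mks1 differed by -0.12, while Nphp4, Tmem67 and Cep290, a gene mutated in Leber congenital amaurosis, differed by 0.11, 0.11 and 0.063. With median scaling the differences of Ahi1 and Mks1 were above 0, at 0.053 and 0.055.

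Rpgrip1 is shown as a member that holds the CRX core, read here on the opposite strand as GGATTA and beginning 28 bases before the start (chr14:52110653-52110952, + strand).
Rpgrip1: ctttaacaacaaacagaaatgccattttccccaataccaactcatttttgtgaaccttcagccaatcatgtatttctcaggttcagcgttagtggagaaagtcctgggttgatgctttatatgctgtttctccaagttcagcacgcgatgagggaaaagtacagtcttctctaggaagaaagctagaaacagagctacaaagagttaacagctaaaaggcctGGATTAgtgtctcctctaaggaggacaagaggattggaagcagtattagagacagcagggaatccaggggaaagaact

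Of 38 further transition zone and connecting cilium genes, 1 was at least 1.5-fold lower and none higher, against 5.44% and 2.08% of all genes. Pcare, which encodes an actin regulator of photoreceptor cilia needed to start new outer segment discs, had a level of -0.15 in Mef2d KO and 1.01 in WT. Its difference was -1.16, a 2.24-fold lower level, with -1.03 under normexp background and -0.99, just under 2-fold, with median scaling. The array carried 1 probe for it. Among the others Cetn1, a centrin, differed by -0.28, Cspp1, a spindle and cilium protein, by 0.42, and Poc1b, a centriolar protein linked to cone dystrophy, by 0.43. The list median was 0.050.

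Genes for the delivery of lipidated proteins were mostly lower in Mef2d KO. Of the 6, 5 had a negative difference and 4 lay beyond their error-model SD. Arl3 stood at 3.05 in Mef2d KO and 3.50 in WT. Its difference of -0.45, or 1.37-fold lower, was the lowest of the 44, and 7.96% of all genes had one as low. Arl13b, the exchange factor that activates ARL3 in the cilium, stood at 1.16 in Mef2d KO and 1.5 in WT (-0.33), and its other probe gave -0.29. Pde6d, the carrier of prenylated proteins, had levels of 2.51 in Mef2d KO and 2.85 in WT (-0.34), or -0.21 under normexp background. Unc119, the carrier of acylated proteins such as rod transducin, had levels of 7.58 in Mef2d KO and 7.80 in WT (-0.22). With median scaling these differences were -0.28 for Arl3, -0.16 for Arl13b, -0.16 for Pde6d and -0.038 for Unc119, and only that of Arl3 stayed beyond its error-model SD. Unc119 differed by -0.12 with quantile normalization. All 4 were below 0 under each scaling and normalization, while Unc119b, the other UNC119 carrier, differed by 0.027. Inpp5e, a prenylated phosphatase carried by PDE6D, differed by 0.054, with -0.079 and -0.034 by its other probes, and the adaptor Tulp3 by -0.052, or 0.014 under normexp background.

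Windows of Arl3 (chr19:46573133-46573432, - strand) and Arl13b (chr16:62846991-62847290, - strand) are shown as the GTPase and its activator. Arl13b holds the X-box arm, beginning 181 bases before the start, and Arl3 holds neither the arm nor the CRX core.
Arl3: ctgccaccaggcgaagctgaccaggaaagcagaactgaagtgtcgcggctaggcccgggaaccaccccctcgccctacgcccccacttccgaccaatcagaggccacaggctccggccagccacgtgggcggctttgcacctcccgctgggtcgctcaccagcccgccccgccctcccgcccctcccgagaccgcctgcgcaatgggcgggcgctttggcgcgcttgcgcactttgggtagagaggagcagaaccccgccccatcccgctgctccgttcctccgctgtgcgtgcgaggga
Arl13b: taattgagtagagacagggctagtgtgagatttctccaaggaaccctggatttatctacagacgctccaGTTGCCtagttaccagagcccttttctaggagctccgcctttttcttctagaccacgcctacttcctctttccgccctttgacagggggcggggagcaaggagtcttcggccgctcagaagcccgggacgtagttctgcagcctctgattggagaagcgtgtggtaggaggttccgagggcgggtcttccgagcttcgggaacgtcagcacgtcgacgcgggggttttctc

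Of 14 further genes listed with this pathway and its cargo, 2 were at least 1.5-fold lower and none higher, against 5.44% and 2.08% of all genes. Their median was -0.068, or 0.11 with median scaling. Rabgef1, an exchange factor for the endosomal GTPase RAB5, stood at 1.58 in Mef2d KO and 3.54 in WT. Its difference of -1.96 meant a 3.89-fold lower level, and its other probe gave -1.88. Gpr161, a ciliary receptor, differed by -0.60 (-0.29 under normexp background) at levels of -4.82 in Mef2d KO and -4.22 in WT. At that brightness the spike with levels of -4.9 in Mef2d KO and -4.2 in WT differed by -0.74. Rab28 and Rabl2, both small GTPases, had the highest differences of the list, 0.13 each.

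Where a gene had more than 1 probe, the probes could be set against each other. For 17 members the difference by the brightest probe and that by the second brightest lay apart by a median of 0.071, against 0.11 for 4347 genes with such probes. They had the same sign for 12 of the 17 members (70.6%) and for 2976 of those 4347 genes (68.5%), a like share. The other 5 were Bbs10, Inpp5e, Kif17, Kif3a and Kif3b. Each of these differed by less than 0.1 by its brightest probe. Members with the largest readings, among them Bbs5 (0.41 and 0.35), Bbs7 (0.29 and 0.33), Lca5 (-0.34 and -0.37) and Arl13b (-0.33 and -0.29), gave close values by both probes. Probes of 1 gene share their sample, so this covers the array reading and not the animals.

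**Figure D3:**
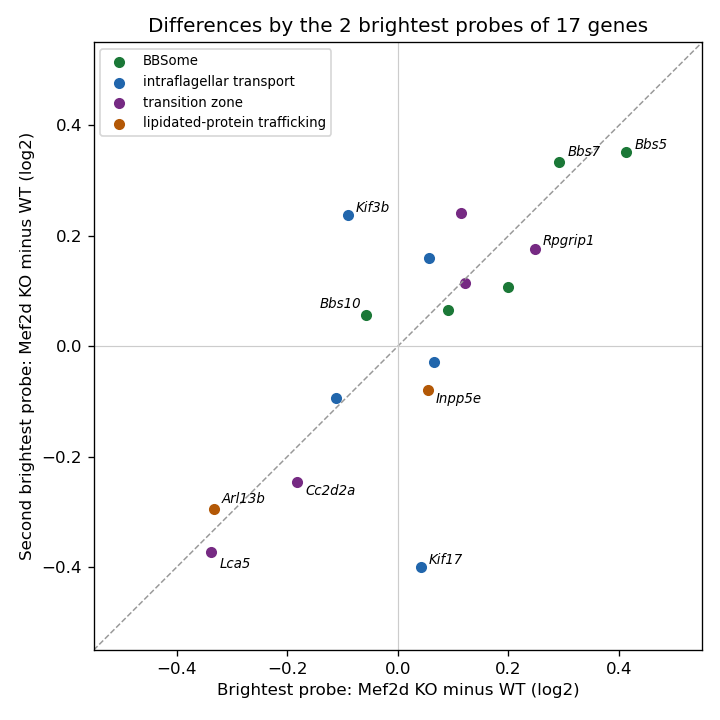
Difference (log2, Mef2d KO minus WT) by the brightest probe (horizontal) and the second brightest probe (vertical) of the 17 members with more than 1 probe, coloured by group; the dashed line marks equality. Most points lie near the line, and Kif17 and Kif3b lie farthest from it.

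**Figure D4:**
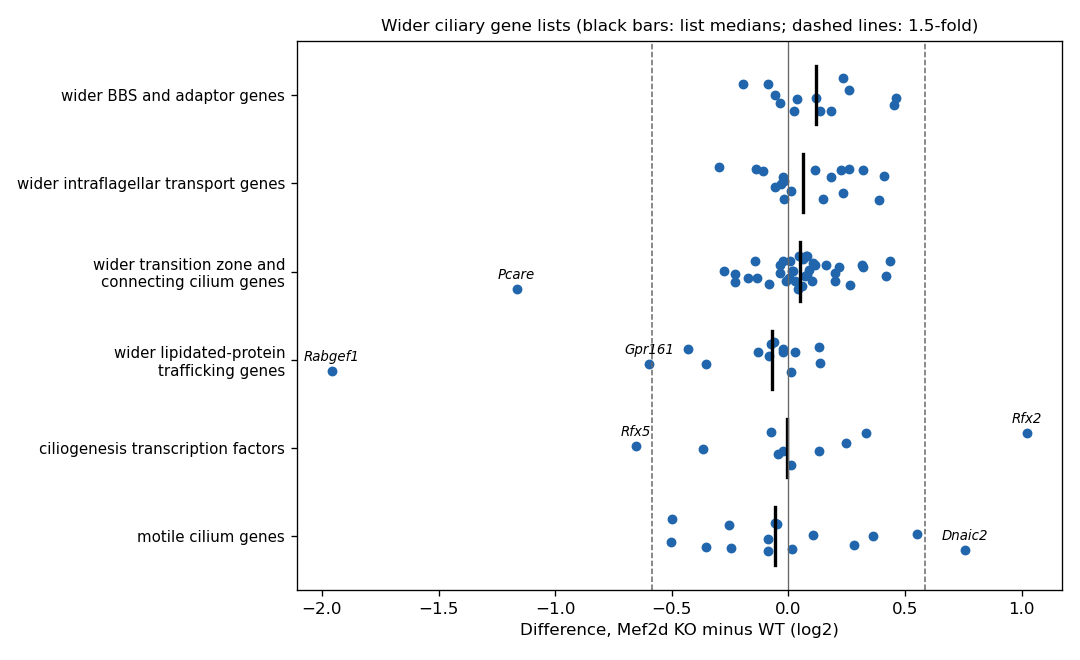
Differences (log2, Mef2d KO minus WT) of further ciliary genes measured above background in both samples, by list, with black bars at the list medians and dashed lines at 1.5-fold. Named points lie beyond 1.5-fold, led by Rabgef1 at -1.96 and Pcare at -1.16.

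Other cell types also differed between the arrays, and their part in these results was not tested. Lens markers were mostly lower in Mef2d KO, with 8 of 11 at least 2-fold lower, against 1.74% of all genes. Their summed signal on the log2 scale was 6.0 in Mef2d KO and 7.61 in WT, and Lim2, the twelfth listed, was well above background in WT alone. Rod and cone markers had a median difference of -0.13, with 2 of 19, Arr3 and Pde6h, at least 2-fold lower, against that same 1.74%. Bipolar, Mueller glia and vascular markers had medians of -0.14, -0.14 and -0.22, each with no member 1.5-fold apart, against 5.44% lower and 2.08% higher of all genes. Their summed signals were 8.14 in Mef2d KO and 8.35 in WT for bipolar cells, 8.24 in Mef2d KO and 8.34 in WT for Mueller glia, and 4.56 in Mef2d KO and 4.68 in WT for vessels. Microglia markers had a median of 0.29, with 9 of 10 above 0 against 48.8% of all genes, and summed to 5.30 in Mef2d KO and 5.15 in WT. Pigment epithelium markers had a median of 0.17 and summed to 5.03 in Mef2d KO and 4.87 in WT, with 1 of 10 not well above background on either array. With median scaling the rod and cone, bipolar and Mueller glia medians were above 0, at 0.047, 0.038 and 0.041.

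**Figure D5:**
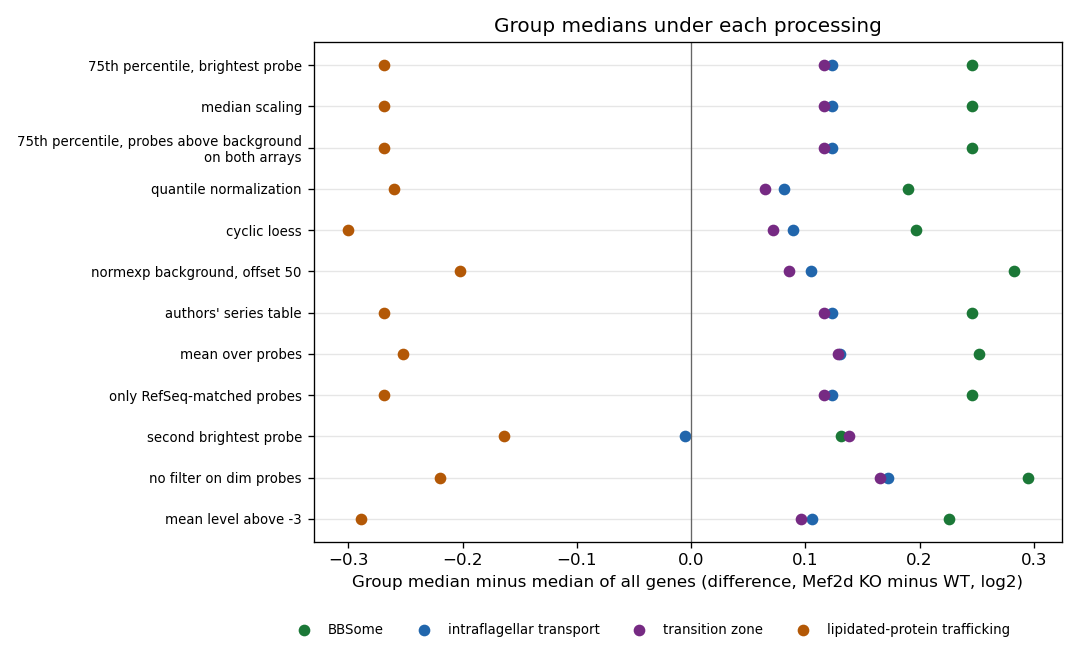
Median difference of each group minus the median of all genes (log2, Mef2d KO minus WT) under each processing, 1 row per processing. BBSome medians stay above 0 and lipidated-protein trafficking medians below 0 in every row, while the row for the second brightest probe, which rests on 17 genes and for lipidated-protein trafficking on 2, puts intraflagellar transport at -0.0058. The other scalings and the series table shift all genes by 1 constant, which cancels here, so their rows repeat the first by construction. The row of RefSeq-matched probes holds the same values as the first.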

How the data were processed

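Total RNA was amplified and labelled with Cy3, per the labels' protocols, and each array was read into spot intensities. Per the file headers, the authors obtained each intensity from Agilent Feature Extraction 10.10.1.1 with background subtraction and spatial detrending. A deposited table of the series repeats these intensities multiplied by 1 constant per array (1.76 for Mef2d KO and 1.88 for WT), linear and uncentred, with column medians of 136.6 and 155.1. The basis of those constants is not stated. The scanner files hold 59305 probe spots per array and no gene names. No spot was saturated, and 69.6% of spots on the Mef2d KO array and 75.5% on the WT array were well above background.

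Control spots and outlier spots (126 and 106) were left out, spots of a probe were averaged, and each array's 75th percentile of log2 signal was subtracted. Of 55669 probes, 48.9% were named through RefSeq accessions (GRCm38.p6). A gene took its brightest probe. Every member could be named, and of further genes those 1.5-fold apart and the 2 largest differences of each sign. Unc119b, Bbip1, Ift46, Ttc26, Dnah9, Cfap43 and Spag6 were named after their values were seen. The members and lists were chosen with earlier results of these data known. The number of arrays limits the precision, and p-values were not computed. Over probes with replicate spots and a mean level above -3, the median SD of the difference was 0.061. Alternatives were other scalings, quantile and cyclic loess normalization, normexp background (offset 50, on median signals), the series table and other probe rules. The gene rule was tested on simulated data. R 4.3.3, limma 3.58.1, Python 3.11.15, numpy 2.4.6, pandas 2.3.3 and matplotlib 3.10.9 were used.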

Additional observations from a re-analysis of the deposited data

How the results depend on the processing

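No member was at least 2-fold apart under any of the 11 alternatives, and none was 1.5-fold lower. With median scaling 1 member, Bbs5, was at least 1.5-fold higher (0.59), as were 4.35% of all genes, since that scaling adds 0.18 to every difference. The group medians minus that of all genes moved by more than the SD between replicate spots in 4 cases. Under normexp background the lipidated-protein trafficking median was -0.20. By the second brightest probe, which 17 members have, the BBSome median was 0.13, the intraflagellar transport median -0.0058 and the lipidated-protein trafficking median, of 2 genes, -0.16. Smaller moves over 1.5 times came with quantile normalization, where the median of all members was 0.069 (0.11 in the report's setting), that of the transition zone genes 0.065 (0.12) and that of intraflagellar transport 0.082 (0.12). With cyclic loess the medians of all members and of the transition zone genes were both 0.072. Single members changed sign in 7 cases with median scaling, 1 each with quantile normalization and cyclic loess, 2 with normexp, 4 with the mean over probes and 5 by the second brightest probe. Members beyond their error-model SD numbered 31 higher and 1 lower with median scaling, against 41.8% and 9.03% of all genes under that scaling, 4 and 4 by the second brightest probe, and otherwise 8 to 10 higher and 4 to 6 lower. Keeping only RefSeq-matched probes changed nothing, because the files name genes in no other way. No paired analysis was possible because each group has 1 array, and no array could be left out for the same reason.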

Other observations

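Transcription factors of ciliogenesis gave no common direction. Of 10 well above background on both arrays, 1 was at least 1.5-fold higher and 1 lower, against 2.08% and 5.44% of all genes. Their median was -0.0048. Rfx2, an RFX factor best known from sperm and motile cilia, had levels of -3.90 in Mef2d KO and -4.92 in WT. That difference of 1.02 became 0.36 with normexp background, 1.40 with quantile normalization and 1.41 with cyclic loess. Rfx5, an activator of MHC class II genes, had levels of -4.37 in Mef2d KO and -3.71 in WT, a difference of -0.65, -0.33 with normexp background and -0.39 with quantile normalization. The spiked-in control at levels of -4.9 in Mef2d KO and -4.2 in WT differed by -0.74. Rfx4 differed by -0.36, which became 0.20 with quantile normalization, and Foxn4, a factor of amacrine and horizontal cell progenitors, by 0.33, which became 0.013 with normexp background, 0.85 with quantile normalization and 0.75 with cyclic loess. Both had levels near -5.

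Motile cilium genes were mostly dim. Of 21 with a probe, 15 were well above background on both arrays, and their median was -0.058. Dnaic2, an intermediate chain of axonemal outer arm dynein, had levels of 1.17 in Mef2d KO and 0.41 in WT, and its difference of 0.76 was past 1.5-fold, by 1 probe, as no other of the 15 was by its brightest probe. A further 3 genes were well above background on the WT array only. Their signal was lower in Mef2d KO, for Dnah9 at least 2.08-fold, for Cfap43 at least 2.76-fold and for Spag6 at least 1.13-fold. The other probe of Cfap43 gave 0.21. A bound sets the WT level against the higher of the gene's own Mef2d KO level and the dimmest Mef2d KO level well above background. Dim spikes, equal in both samples, also read lower in Mef2d KO. They differed by -0.74 (-4.9 in Mef2d KO and -4.2 in WT), -1.81 (-7.0 in Mef2d KO and -5.38 in WT) and -1.21 (-7.7 in Mef2d KO and -6.05 in WT). The bounds thus describe array signal, and less RNA cannot be read from them. Rsph9, a radial spoke gene, differed by -0.50. Cfap44, at levels of -4.84 in Mef2d KO and -4.33 in WT, differed by -0.50 and by -0.13 with quantile normalization. Rsph1, another radial spoke gene, differed by 0.55 by one probe and -0.98 by the other.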
